A study of Rattus norvegicus with 63 samples.

Results

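The genes described are the heat shock proteins and molecular chaperones of rat liver, the proteins that fold new and damaged polypeptides. They were chosen by name, with earlier results of these data known. The rule took all genes whose single array symbol begins with Hsp and then a, b, d, e, h or 9, or with Dnaja, Dnajb or Dnajc. Tcp1, Cct2, Cct3, Cct4, Cct5, Cct6a, Cct7 and Cct8 were added, and Hspg2, which encodes a matrix proteoglycan, was left out. This gave 61 of the 10411 genes measured, each read from the brightest, on average, of the probe sets that carry its symbol alone. Probe sets that match Hspa8, Hsp90aa1 or Hspa1b also match another symbol, so that these genes, the first 2 of them the constitutive HSC70 and the inducible HSP90, have no value here.

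The 63 arrays came from livers of male Wistar Hanover rats aged 8 to 10 weeks at the start, dosed daily by gavage with 1 of 15 compounds or with vehicle, 3 animals per group and 1 array per animal. The 3 animals of each dosed group were picked from 5 for showing some liver change on histopathology. They are separate animals that were not drawn at random. The study gives no such selection for the vehicle groups. The doses per kg of body weight and day were 3000 mg acetamide (AA), 400 mg methylcarbamate (Mcarb), 600 mg dehydroepiandrosterone (DHEA), 200 mg ethionine (ETH), 3 mg nifedipine (Nif) and 250 mg cefuroxime (CFX), all for 14 days. Phenobarbital (PB), with no dose in the labels, and 100 mg cyproterone acetate (CPA) were also given for 14 days. Dosing lasted 7 days for 19.2 mg thioacetamide (TAA), 60 mg methapyrilene (MPy), 146 mg C.I. Direct Black (CIDB) and 4 mg dimethylnitrosamine (DMN), and 3 days for 60 mg Wy-14643 (Wy), 10 mg diethylstilbestrol (DES) and 1200 mg piperonylbutoxide (PBO). Each compound was set against its own 3 vehicle animals. AA, Mcarb, TAA, MPy, DHEA and Wy shared methylcellulose control set 1, CFX and Nif set 2, and ETH, DES and PBO set 5, while PB had set 6. CIDB and DMN shared corn oil control set 3, and CPA had corn oil set 4. By the labels all control sets were dosed for 14 days except set 3 (7 days), whereas the study's methods call the controls time-matched, and for TAA, MPy, Wy, DES and PBO a difference in days cannot be told apart from the compound. The study classes AA, Mcarb, MPy, DHEA, ETH, DES, PBO and PB as non-genotoxic carcinogens (NGC). CIDB and DMN are its genotoxic carcinogens (GC), and CFX and Nif its non-carcinogens (NC). It held TAA, Wy and CPA out of training as undefined, and its models then classified them as NGC. The class comparisons below leave these compounds out. The study asked whether short dosing separates the classes.

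Chaperones are organised by compartment. In the cytosol, HSP70 proteins bind unfolded chains with the help of J proteins, which stimulate their ATPase, and of nucleotide exchange factors, and they hand substrates on to HSP90 or to the ring-shaped CCT chaperonin, which folds actin and tubulin. Mitochondria use their own HSP70, which also pulls proteins in through the inner membrane, and a chaperonin of HSP60 and HSP10 subunits, while the endoplasmic reticulum, through which the hepatocyte exports plasma proteins, uses BiP, GRP94 and dedicated J proteins. Many cytosolic and some mitochondrial chaperone genes carry binding sites for HSF1, the heat shock transcription factor, and those of the endoplasmic reticulum carry elements read in the unfolded protein response.

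Promoter stretches are shown here for some of the genes that matched a search for a heat shock element or an endoplasmic reticulum stress element. RefSeq promoters of the rat build GRCr8, from 250 bases before to 50 bases after the start, were at hand for 51 of the 61 genes. A heat shock element of 3 alternating units was searched as GAANNTTCNNGAA or its complement TTCNNGAANNTTC, so that both strands were covered. It stood in 5 of the 51 member promoters (9.8%) and in 267 of all 33469 promoters of the same length (0.798%). Members were counted with 1 promoter per gene, while the 33469 are every promoter at hand and were not limited to genes on the array. The 5 genes were Hspd1, Hspe1, Hsph1, Dnaja1 and Cct4, and in the last pair the element lay after the start. The promoters of Hspa1a, Hspb1, Dnajb1 and Hspb8, which are on the list of HSF1 targets used below, held no exact match. Imperfect elements and sites outside the window were not searched, so a missing match does not show that a gene lacks the element. The endoplasmic reticulum stress element, searched as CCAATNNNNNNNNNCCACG or its complement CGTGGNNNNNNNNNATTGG, stood in 3 member promoters (5.88%) and in 22 of all promoters (0.0657%), and the 3 genes were Hspa5, Hsp90b1 and Dnajc3. The stretches below are written 5′ to 3′ on the gene's strand with 15 bases on either side, and capitals mark the span of the element or, for Hspe1, of 2 overlapping elements.
Hspe1, chr9:64084247-64084294, plus strand: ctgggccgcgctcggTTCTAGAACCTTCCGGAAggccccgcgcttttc
Hsph1, chr12:10427317-10427359, plus strand: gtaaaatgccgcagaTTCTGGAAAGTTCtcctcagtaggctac
Hspa5, chr3:38452958-38453006, plus strand: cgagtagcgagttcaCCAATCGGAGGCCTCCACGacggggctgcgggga
Dnajc3, chr15:102432519-102432567, plus strand: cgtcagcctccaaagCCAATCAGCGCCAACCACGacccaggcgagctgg
The Hspe1 element lies from 65 to 48 bases before the start. Hspd1 lies head to head with Hspe1 on the minus strand, and its promoter window holds the same bases, so the pair is 1 stretch of DNA seen from both sides. The Hspa5 element lies from 43 to 25 and the Dnajc3 element from 133 to 115 bases before the start. Hsp90b1 held 2 copies. Such a match describes letters in the DNA and is not a measured binding site.

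Values are log2 array levels, so a difference of 1 is a doubling in array signal. A gene was called in a comparison at an adjusted p under 0.05 in limma, fitted over all 15866 probe sets and 63 arrays with Benjamini-Hochberg adjustment, and fold changes are given as log2 ± SE with 3 animals against 3. Calls rest on that model, since 0.1 is the smallest two-sided p that an exact permutation test can give with 3 animals a side. Each contrast was also fitted 6 times with 1 of its arrays left out in turn, and a call that failed in 3 or more of those fits is given with that number. Of the 121 calls of members in single compounds, 59 failed in none. For 16 members other probe sets were measured as well, 17 in all, which over the 15 compounds makes 255 pairs of such a probe set and a compound. In 15 pairs it and the probe set used were called in the same direction. In 29 pairs only the one used was called, in 25 only the other, and in 1 they were called in opposite directions. Hspa9 has 3 probe sets, so its calls enter these counts more than once. The number of arrays limits the precision, and fewer cells of a type cannot be told apart from less RNA per cell in whole liver.

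A change in at least 1 compound, by the moderated F test over the 15 contrasts, was called for 46 of the 61 chaperone genes, against a background of 63.2% of all genes. ETH and DHEA called the most. ETH had 19 members up and 7 down, beside 13.6% of all genes up and 13.1% down, and DHEA had 17 up and 6 down, beside 9.78% up and 9.35% down. As shares, 31.1% and 27.9% of the members were up in ETH and DHEA, and 11.5% and 9.84% were down, the shares down lying near the background. PBO had 11 up and 4 down (background 7.04% up, 8.44% down), Wy 8 up and 1 down (7.67% up, 7.38% down), TAA 6 up and 1 down (3.6% up, 3.68% down) and MPy 5 up and 2 down (3.49% up, 3.31% down). DES had 4 up and 8 down, 6.56% and 13.1% of the members, near a background that also leaned down (6.79% up, 9.99% down).

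Few members moved in the remaining compounds, and their shares were near the background. CIDB had 4 up and 4 down (background 8.63% up, 6.62% down), Nif 2 up and 3 down (4.26% up, 2.95% down), CPA 2 up and 2 down (3.2% up, 5.34% down), AA 1 up and 2 down (1.82% up, 1.95% down) and DMN 2 up and 0 down (2.88% up, 0.855% down). Mcarb, PB and CFX called 0 members in either direction by limma, beside 0.932% up and 0.25% down, 0.999% up and 0.509% down, and 0% up and 0% down of all genes. With controls pooled by vehicle, Mcarb called 13 members, TAA 17, MPy 17 and Wy 18, and with array weights CIDB called 20 and DMN and Nif 17 each. The order of the compounds below ETH and DHEA thus depends on the fit. Shares of all genes under these 2 settings were not counted, so the higher counts cannot be read as particular to chaperones. In corn oil control set 3 the array weights were 4.85 for replicate 5, 0.47 for replicate 4 and 0.69 for replicate 6. Changes past 1.5-fold as well were 9 in ETH, 5 in DHEA and at most 3 in any other compound, and the share of all genes past 1.5-fold was not counted. The medians of all genes lay between −0.03 and 0.02 in the 15 contrasts, and those of the members between −0.01 and 0.13. The shares of all genes given above for each compound are also the background for the counts over smaller lists below.

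**Figure D1:**
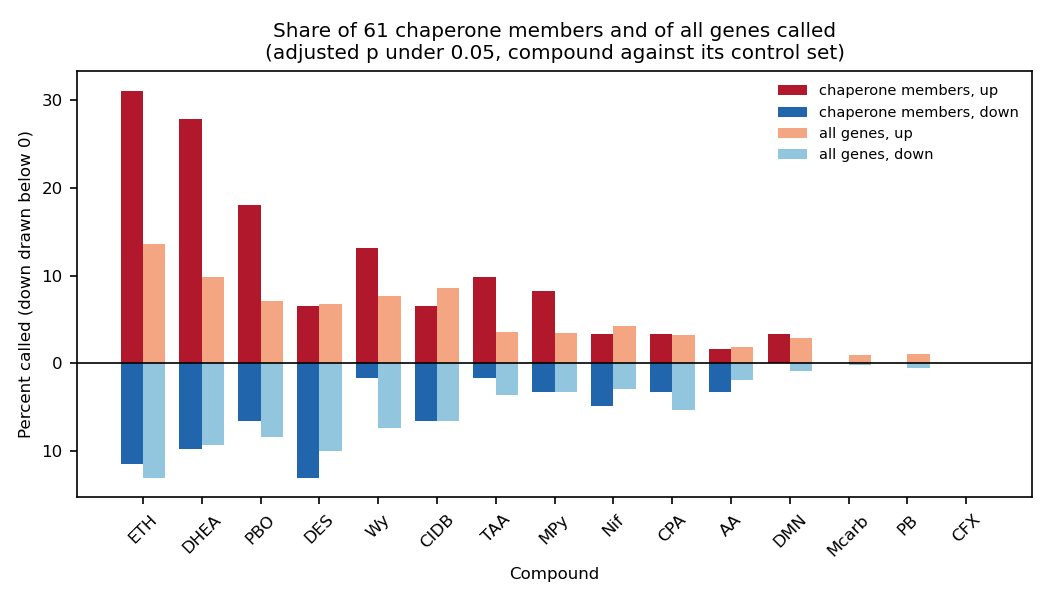
Percent of the 61 chaperone genes (dark bars) and of all 10411 genes (light bars) called up (above 0) or down (drawn below 0) by limma (adjusted p under 0.05), in each compound relative to its controls with 3 animals per group. ETH and DHEA have the tallest bars, with 19 and 17 members up.

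**Figure D2:**
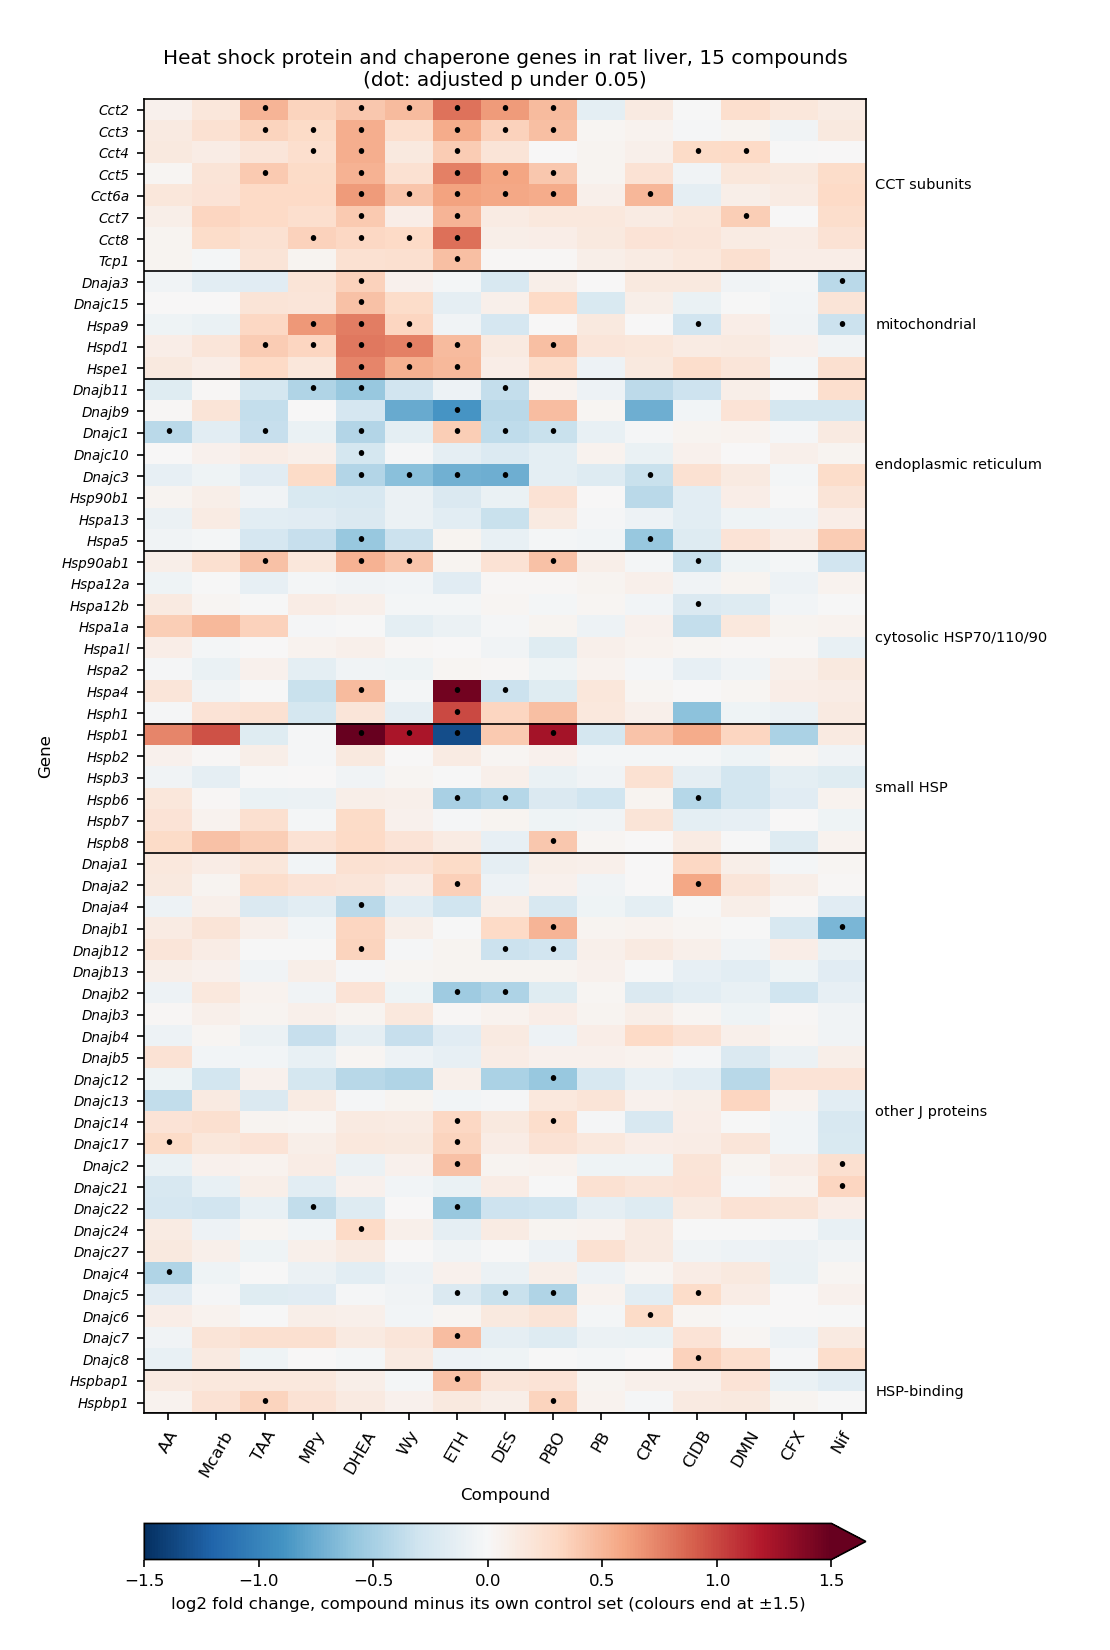
Log2 fold change (colour, compound minus its own control set) of the 61 chaperone genes (rows, grouped by role) in 15 compounds (columns), with a dot where the adjusted p is under 0.05. The CCT rows are red wherever they carry a dot, and the endoplasmic reticulum rows are blue at every dot but Dnajc1 in ETH.

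The CCT chaperonin, a double ring of 8 kinds of subunit, was the group that moved most evenly. All 8 subunit genes rose in ETH and 7 of 8 in DHEA, 4 rose in DES and in PBO, 3 each in TAA, MPy and Wy, 2 in DMN and 1 each in CPA and CIDB. None was called down in any of the 15 compounds. Left out singly, arrays brought the number down to 7 in ETH, 3 in DES and 1 in PBO (each without methylcellulose control set 5 replicate 9), 5 in DHEA (without DHEA replicate 3), 1 in TAA (without set 1 replicate 6), 0 in MPy (without set 1 replicate 4) and 0 in Wy (without Wy replicate 2). The medians over the 8 subunits were 0.58 in ETH, 0.46 in DHEA, 0.30 in TAA, 0.29 in MPy, 0.28 in PBO, 0.27 in DES and 0.24 in Wy, beside medians of all genes of −0.03 to 0.01 in these compounds. Without set 5 replicate 9 the medians were 0.43 in ETH and 0.18 in DES.

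Cct8, the theta subunit, read 7.83, 7.74 and 7.73 in ETH livers, against 6.91, 6.95 and 6.97 in their controls. The groups lay far apart, and no other compound's animals reached the ETH values. The difference was 0.82 ± 0.09 (adjusted p = 4.27e-10 by limma), 1.77-fold. Cct2, the beta subunit, read 10.32, 10.28 and 10.36 in ETH livers, against 9.75, 9.59 and 9.16 in their controls, a difference of 0.82 ± 0.12 (adjusted p = 6.03e-07 by limma). The treated animals were tight and the controls spread, with the animal at 9.16, control set 5 replicate 9, the lowest of all 63. Cct5, the epsilon subunit, read 11.59, 11.44 and 11.54 in ETH livers and 11.34, 11.30 and 11.46 in DES livers, against 11.02, 10.78 and 10.51 in the controls that both share. Its differences were 0.75 ± 0.10 in ETH and 0.60 ± 0.10 in DES. All 6 dosed animals stood above the 3 controls. The other subunits rose in ETH by 0.60 ± 0.12 for Cct6a, 0.56 ± 0.09 for Cct3, 0.50 ± 0.10 for Cct7, 0.45 ± 0.12 for Tcp1 and 0.38 ± 0.08 for Cct4. Without set 5 replicate 9 the rise of Cct6a was 0.36, and that of Tcp1, at 0.32, was not called (adjusted p = 0.0641 by limma).

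In DHEA livers the largest rise among the subunits was that of Cct6a, the zeta subunit, which read 10.90, 10.80 and 10.89 in DHEA animals, against 10.28, 10.29 and 10.10 in their controls (0.64 ± 0.12, adjusted p = 9.82e-05 by limma). Cct4 and Cct3 followed at 0.54 ± 0.08 and 0.54 ± 0.09, and Tcp1, at 0.23, was the subunit that did not pass. Cct2 and Cct3 were called in 6 compounds each, Cct6a in 6, Cct4 and Cct5 in 5, Cct8 in 4, Cct7 in 3 and Tcp1 in ETH alone. Cct2 rose in TAA by 0.50 ± 0.12, in Wy by 0.48 ± 0.12, in PBO by 0.47 ± 0.12 and in DES by 0.64 ± 0.12. Cct3 rose by 0.29 to 0.56 in its 6 compounds and Cct6a by 0.41 to 0.64. Without set 5 replicate 9, Cct6a stood at 0.34 in DES and at 0.32 in PBO, where it was no longer called (adjusted p = 0.0527 by limma), and the calls of Cct2 in PBO (0.31, adjusted p = 0.107) and of Cct3 in DES (0.23, adjusted p = 0.0959) were lost as well. The Cct3 calls in MPy and TAA failed in 5 and 4 of their 6 leave-one-out fits, and those of Cct5 in TAA, Cct6a in Wy and Cct4 in CIDB in 3 of 6. A second probe set of Cct6a, with a lower mean level, rose in DHEA, MPy, TAA, AA and Wy by 0.46 to 0.98 and was not called in ETH, DES, PBO or CPA, where the one used was (with the mean of both the CPA call was lost, adjusted p = 0.0958), so that the 2 probe sets of Cct6a disagree in 7 of the 15 compounds.

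The CCT calls in DMN and MPy were less stable. Without corn oil control set 3 replicate 5 the 2 DMN calls, Cct7 at 0.37 ± 0.10 and Cct4 at 0.30 ± 0.08, were both lost, as they were in 4 and 5 of the 6 such fits and with pooled controls, and with any 1 of its 6 arrays left out MPy called between 2 and 4 of all members in place of 7. Cct4 in MPy (0.25 ± 0.08) was lost in all 6 of those fits. The ETH calls of Cct8, Cct2 and Cct5 stood in all 6.

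Markers of other cell types moved in the same livers. In ETH, 9 of 10 macrophage genes rose and 1 fell, and their summed level, on the log2 scale, was 14.11 to 14.17 in ETH livers, against 12.77 to 13.13 in their controls. In DHEA, 8 of the 10 fell, with 12.47 to 12.66 in DHEA livers, against 13.19 to 13.35 in their controls. The part of cell composition in the CCT changes was not tested. Among hepatocyte markers 2 of 11 rose and 0 fell in ETH, and 2 rose and 5 fell in DHEA, with summed levels of 17.28 to 17.37 in ETH livers, against 17.18 to 17.24 in their controls, and of 17.04 to 17.09 in DHEA livers, against 17.21 to 17.24 in theirs.

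Prefoldin passes actin and tubulin to CCT, and 10 of 12 listed genes of prefoldin, its partners and the tubulin-specific cofactors were measured. Of these 5 rose and 1 fell in ETH (background 13.6% up, 13.1% down), 3 rose and 1 fell in CIDB (8.63% up, 6.62% down) and 2 rose in Nif (4.26% up). At most 1 rose and 1 fell in any other compound. Pdcl3, a phosducin-like partner of CCT, rose in 11 compounds, by 0.42 ± 0.14 in Nif at the least and 0.89 ± 0.14 in CIDB at the most. In ETH it rose by 0.85 ± 0.14, Pfdn4 by 0.67 ± 0.16, Pfdn5 by 0.47 ± 0.13 and Tbca, a tubulin cofactor, by 0.43 ± 0.15.

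**Figure D3:**
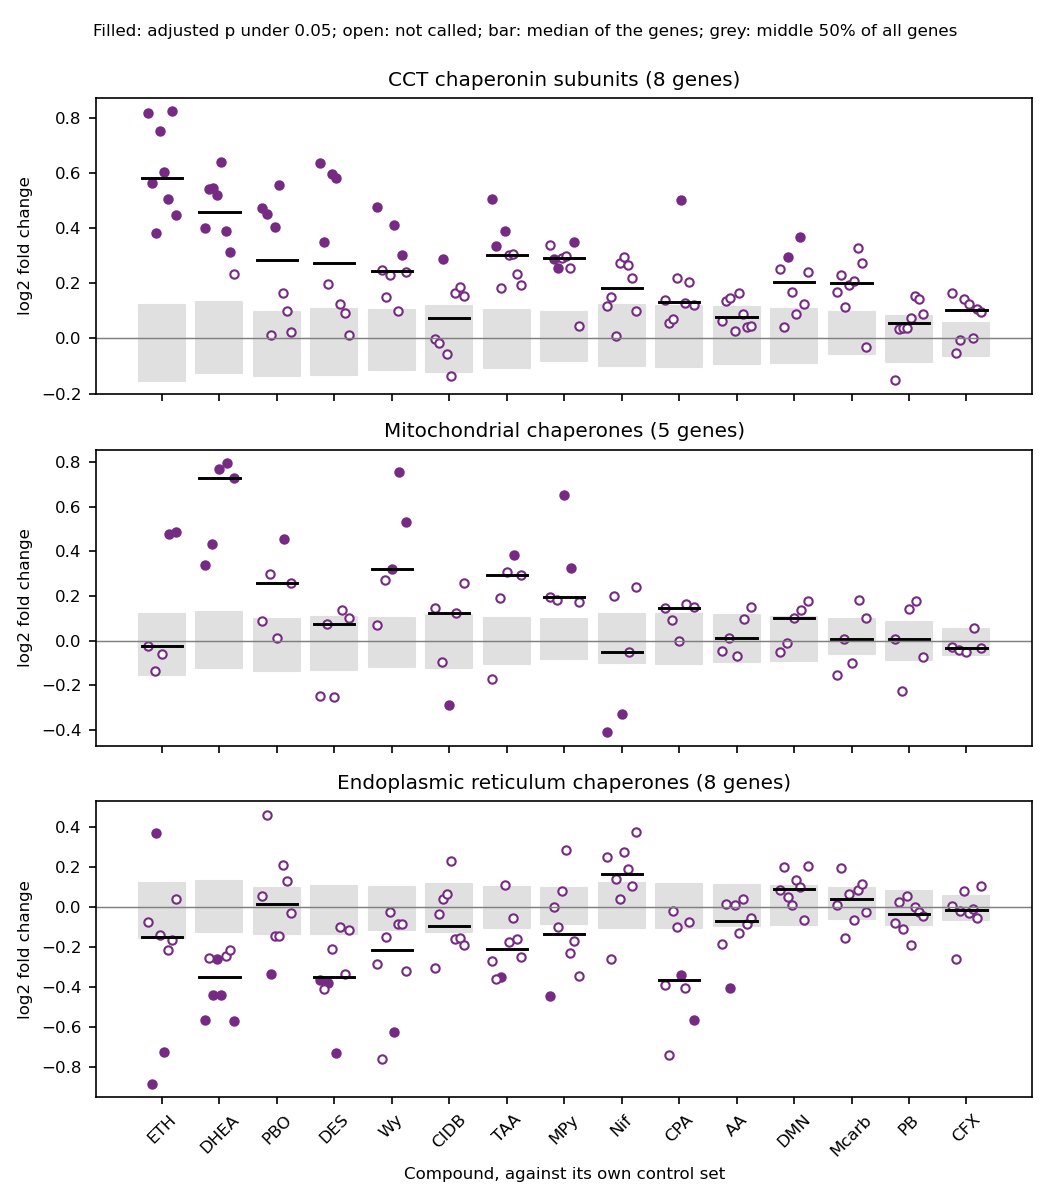
Log2 fold change of each CCT, mitochondrial and endoplasmic reticulum chaperone gene (points, filled where called), with the median of the genes (bar) and the middle 50% of all genes (grey), for each compound against its control set. CCT medians are 0.58 in ETH and 0.46 in DHEA, the mitochondrial median is 0.73 in DHEA, and the endoplasmic reticulum medians are −0.35 in DHEA and −0.36 in CPA.

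The mitochondrial chaperones rose most in DHEA, where all 5 measured genes of the 9 listed were called up with a median of 0.73. Wy raised 3 of the 5, ETH and MPy 2, and TAA and PBO 1. Calls downward were those of Hspa9 in CIDB and of Hspa9 and Dnaja3 in Nif. Without DHEA replicate 3 the DHEA calls numbered 3 of 5.

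Hspd1, the HSP60 subunit, read 13.66, 13.46 and 13.74 in DHEA livers and 13.41, 13.71 and 13.62 in Wy livers, against 12.90, 12.94 and 12.63 in the controls that both share. All 6 dosed animals exceeded every control. It rose by 0.80 ± 0.10 in DHEA (adjusted p = 2.53e-08 by limma), 1.74-fold, and by 0.76 ± 0.10 in Wy (adjusted p = 1.04e-07 by limma). Its partner Hspe1, the HSP10 lid, read 13.31, 13.17 and 13.40 in DHEA livers and 12.92, 13.28 and 13.09 in Wy livers, against 12.65, 12.64 and 12.41 in the same controls. It rose by 0.73 ± 0.10 in DHEA and by 0.53 ± 0.10 in Wy. In ETH the head-to-head pair rose by like amounts, Hspd1 by 0.48 ± 0.10 and Hspe1 by 0.49 ± 0.10. Hspd1 alone of the pair was called in PBO (0.45 ± 0.10), TAA (0.38 ± 0.10) and MPy (0.33 ± 0.10), where Hspe1 stood at 0.26, 0.29 and 0.17, and the MPy call failed in 3 of 6 leave-one-out fits. Whether the pair differed in those 3 compounds was not tested.

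Hspa9, the mitochondrial HSP70 also called mortalin, read 12.15, 12.07 and 12.29 in DHEA livers and 12.01, 12.02 and 12.12 in MPy livers, against 11.39, 11.43 and 11.37 in the shared controls. It rose by 0.77 ± 0.10 in DHEA and by 0.65 ± 0.10 in MPy (adjusted p = 1.32e-07 and 1.47e-05 by limma). Both other Hspa9 probe sets rose in DHEA and MPy as well. One of them also rose in PBO by 0.83, in TAA by 0.44 and in Wy by 0.43, where the probe set used stood at 0.01, 0.31 and 0.32, so that Hspa9 disagrees between its probe sets in PBO and TAA. The Wy call of the one used, 0.32 ± 0.10, failed in 5 of 6 leave-one-out fits (at 0.22 without Wy replicate 3, adjusted p = 0.237). In Nif the difference was −0.33 ± 0.10 with the probe set used, a call lost whichever of its 6 arrays was left out, while the other probe sets differed there by −0.96 and −0.38 and were both called. In CIDB it was −0.29 ± 0.10 with overlapping groups, failed in 4 of 6 fits and was called by no other probe set. Dnaja3, a J protein of mitochondrial HSP70, rose in DHEA by 0.34 ± 0.11 (lost in 3 of 6 leave-one-out fits), and Dnajc15, a J protein of the inner membrane, by 0.43 ± 0.13. In Nif, Dnaja3 read 9.23, 9.30 and 9.32, against 9.66, 9.97 and 9.45 in the controls, and fell by 0.41 ± 0.11.

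Of 16 further genes for mitochondrial import, folding and proteolysis, 13 were measured. In both ETH and Wy 7 rose and 0 fell (background 13.6% up in ETH and 7.67% up in Wy), and in DHEA 6 rose and 0 fell (9.78% up). MPy had 4 up and 2 down (3.49% up, 3.31% down) and TAA 3 up and 1 down (3.6% up, 3.68% down). PBO had 3 up and 1 down (7.04% up, 8.44% down), and CIDB 3 up and 3 down (8.63% up, 6.62% down). Timm17a, a channel component of the inner membrane, rose by 0.98 ± 0.09 in ETH and 0.48 ± 0.09 in DHEA. Tomm40, the pore of the outer membrane, rose by 0.61 ± 0.09 in ETH, 0.39 ± 0.09 in DHEA and 0.44 ± 0.09 in Wy. Grpel1, the exchange factor of Hspa9, rose by 0.52 ± 0.11 in DHEA, 0.46 ± 0.11 in ETH and 0.35 ± 0.11 in Wy. Macrophage markers were also down in Wy, 5 of 10, with summed levels of 12.48 to 12.89 in Wy livers, against 13.19 to 13.35 in their controls, and 6 of 11 hepatocyte markers were down, with 16.94 to 17.09 in Wy livers, against 17.21 to 17.24 in their controls. Their part in the mitochondrial genes was not tested.

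The chaperones of the endoplasmic reticulum went the other way. In DHEA 5 of 8 fell and 0 rose, with a median of −0.35, in DES 3 fell (median −0.35), in CPA 2 fell (median −0.36), and in ETH 2 fell and 1 rose (median −0.15). AA, TAA, MPy, Wy and PBO had 1 down each. The 1 upward call in the 15 compounds was that of Dnajc1 in ETH. With controls pooled by vehicle the medians were −0.27 in DHEA, −0.17 in DES, −0.36 in CPA and −0.02 in ETH, and DHEA called 4, DES 2, CPA 3 and ETH 2 down.

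Hspa5, which encodes BiP, the main HSP70 of this compartment, read 11.78, 11.71 and 11.84 in DHEA livers, against 12.41, 12.47 and 12.17 in their controls. In CPA livers it read 11.70, 11.75 and 11.77, against 12.44, 12.14 and 12.35 in theirs. The groups did not overlap in either. It fell by 0.57 ± 0.13 in DHEA and by 0.56 ± 0.13 in CPA (adjusted p = 0.00135 and 0.00409 by limma), 1.48-fold lower in both. Hsp90b1, the HSP90 of the compartment known as GRP94, was called in none of the 15 compounds, with −0.24 in DHEA and −0.41 in CPA (adjusted p = 0.27 and 0.07 by limma).

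Dnajc3, a J protein also known as p58IPK that holds back the kinase PERK, was called down in 5 compounds. It read 10.28, 10.24 and 10.39 in ETH livers and 10.30, 10.24 and 10.37 in DES livers, against 11.29, 11.001 and 10.80 in the shared controls, and fell by 0.73 ± 0.11 in both (adjusted p = 1.35e-06 and 2.4e-06 by limma). In Wy livers it read 10.50, 10.24 and 10.09, against 10.94, 10.83 and 10.94, and fell by 0.63 ± 0.11. The falls were 0.44 ± 0.11 in DHEA and 0.34 ± 0.11 in CPA, and the CPA call was lost with 5 of its 6 arrays left out in turn. Control set 5 stood 0.34 above control set 6 in Dnajc3 (adjusted p = 0.0371 by limma), and the ETH and DES calls stood with the controls pooled by vehicle. Dnajb11, a J protein that joins BiP on its substrates, fell in DHEA by 0.56 ± 0.13, in MPy by 0.45 ± 0.13 and in DES by 0.36 ± 0.13. With pooled controls the MPy and DES calls of Dnajb11 were lost (adjusted p = 0.097 and 0.21), and each failed in 4 of 6 leave-one-out fits. Dnajb9, a J protein of the unfolded protein response, read 7.36, 8.09 and 8.41 in ETH livers, against 8.95, 8.41 and 9.15 in their controls, and the groups touched. Its difference of −0.88 ± 0.29 (adjusted p = 0.0225 by limma) was lost without ETH replicate 1 (adjusted p = 0.203) and in 3 of 6 such fits in all. Dnajc10, a reductase of disulfides, fell in DHEA by 0.26 ± 0.09, a call lost in 4 of 6 leave-one-out fits and with pooled controls, and Hspa13 was called nowhere.

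Dnajc1, a J protein of the membrane that sits near ribosomes, was called down in AA (−0.41 ± 0.10), TAA (−0.35 ± 0.10), DHEA (−0.44 ± 0.10), DES (−0.38 ± 0.10) and PBO (−0.33 ± 0.10) and up in ETH by 0.37 ± 0.10. In ETH livers it read 10.47, 10.43 and 10.49, against 10.07, 10.26 and 9.95 in their controls. Control set 5 lay above sets 2 and 6 in Dnajc1, and the DES and PBO calls were lost with controls pooled by vehicle (adjusted p = 0.24 and 0.47). The TAA call failed in 3 of 6 leave-one-out fits, and a second, dimmer probe set of Dnajc1 was called in none of the 6 compounds.

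Outside these 8 genes, 24 of 28 listed genes of endoplasmic reticulum folding and of the unfolded protein response were measured. In ETH 12 fell and 1 rose (background 13.1% down, 13.6% up), in DHEA 10 fell and 1 rose (9.35% down, 9.78% up) and in CIDB 7 fell and 3 rose (6.62% down, 8.63% up). In MPy 4 fell and 2 rose (3.31% down, 3.49% up), in Wy 6 fell (7.38% down) and in DES 6 fell (9.99% down). In TAA 5 fell (3.68% down) and in CPA 5 fell (5.34% down). In PBO 2 fell, near its background of 8.44% down, while 1 rose in Mcarb (0.932% up) and in Nif (4.26% up). Hyou1, an exchange factor of BiP, fell by 1.25 ± 0.26 in ETH and by 0.93 ± 0.26 in CIDB. Sdf2l1, a partner of Dnajb11, fell by 1.00 ± 0.19 in DHEA, 1.11 ± 0.19 in CIDB, 0.84 ± 0.19 in TAA, 0.73 ± 0.19 in ETH and 0.72 ± 0.19 in Wy. Sel1l, of the degradation machinery, fell by 1.09 ± 0.12 in ETH, and Pdia4, a disulfide isomerase, by 0.84 ± 0.14 in DES and 0.78 ± 0.14 in MPy. The upward calls included Ddit3, the stress transcription factor CHOP, at 0.92 ± 0.19 in MPy, 0.87 ± 0.19 in Mcarb, 0.86 ± 0.19 in CIDB and 0.75 ± 0.19 in ETH, and Trib3, a target of ATF4 and CHOP, at 2.39 ± 0.19 in MPy and 1.00 ± 0.19 in DHEA. In CPA, 6 of 10 macrophage and 5 of 12 stellate markers were down as well, and in CIDB all 5 erythroid markers were down, with summed levels of 10.33 to 10.51 in CIDB livers, against 13.74 to 14.32 in their controls. Their part in these lists was not tested.

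**Figure D4:**
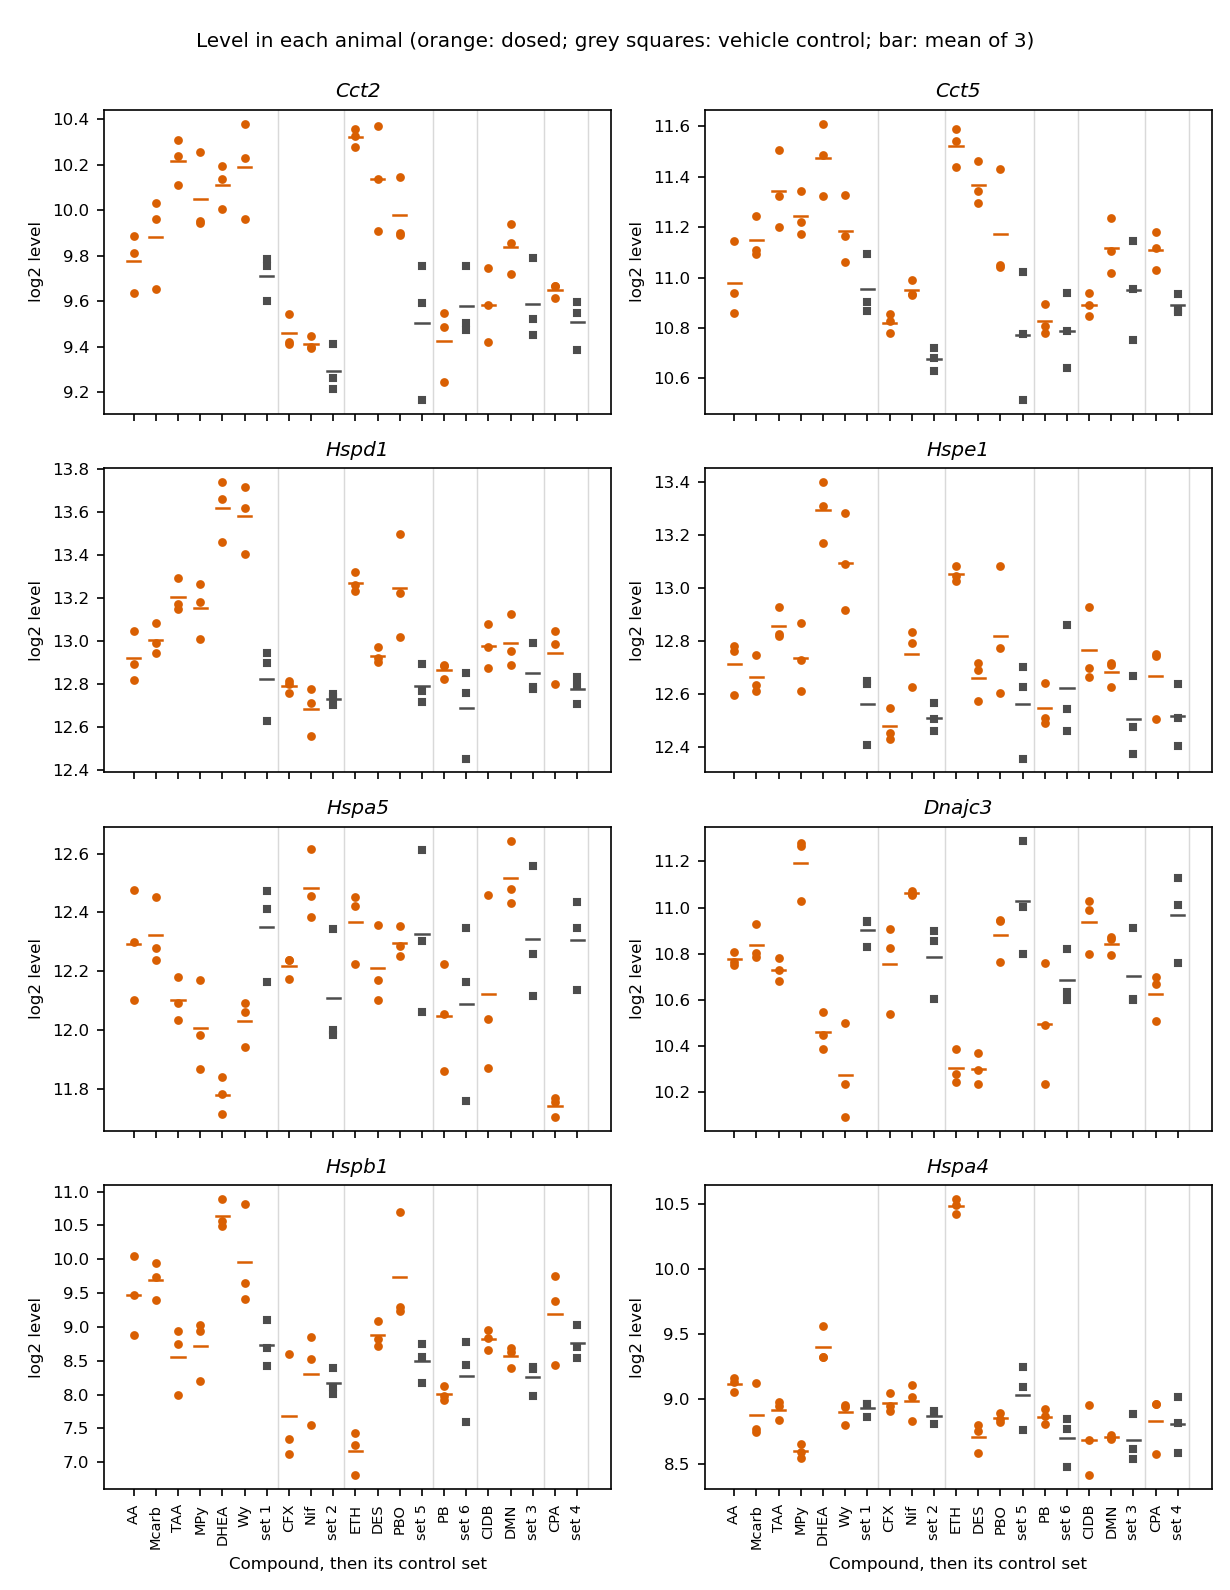
Log2 level of 8 chaperone genes in every animal, compounds (orange points) to the left of the control set they share (grey squares), with the mean of 3 as a bar. Hspa4 in ETH stands at 10.42 to 10.54, above every other animal, and Hspb1 runs from 6.80 in ETH to 10.89 in DHEA.

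In the cytosol, genes tied to acute heat shock were called in PBO, DHEA, Wy, ETH and Nif. Hspa1a, the inducible HSP70, was called in none of the 15 compounds, with differences from −0.36 in CIDB to 0.49 in Mcarb. The Mcarb value came from 1 animal at 9.01, the highest of the 63, against 7.66 and 7.83 in the other Mcarb animals and 7.69, 7.91 and 7.44 in their controls. Hspa1b is a near-identical copy of Hspa1a, so the level may hold both. Another probe set carries the symbols of both genes, and the rule left it out, so its values were not read. Of the 7 measured of 11 listed HSF1 targets, PBO raised 3 and lowered 0 (background 7.04% up, 8.44% down). DHEA raised 1 (9.78% up), Wy raised 1 (7.67% up), ETH raised 1 and lowered 1 (13.6% up, 13.1% down), and Nif lowered 1 (2.95% down). Whether these counts differ from the background was not tested.

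Hspa4, an exchange factor of the HSP110 family, had the lowest adjusted p of the members. It read 10.49, 10.54 and 10.42 in ETH livers, against 9.25, 9.09 and 8.77 in their controls, and rose by 1.45 ± 0.11 (adjusted p = 4.48e-14 by limma), 2.73-fold. The next highest of the 63 animals was a DHEA animal at 9.56. In DHEA livers it read 9.32, 9.56 and 9.32, against 8.96, 8.87 and 8.96, and rose by 0.47 ± 0.11. In DES it was called down at −0.32 ± 0.11 with overlapping groups, a call lost with pooled controls (adjusted p = 0.25) and in 5 of 6 leave-one-out fits. Hsph1, the related HSP105, read 10.76, 10.88 and 10.90 in ETH livers, against 9.97, 9.82 and 9.79 in their controls, and rose by 0.99 ± 0.23 (adjusted p = 0.000999 by limma). It was called in no other compound, and in CIDB it stood at −0.61 (adjusted p = 0.072 by limma).

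Hsp90ab1, the constitutive HSP90, rose in DHEA by 0.52 ± 0.10, in TAA by 0.44 ± 0.10, in PBO by 0.43 ± 0.10 and in Wy by 0.41 ± 0.10. In DHEA livers it read 13.18, 13.13 and 13.32, against 12.74, 12.82 and 12.52 in their controls. In CIDB livers it read 12.56, 12.26 and 12.49, against 12.91, 12.67 and 12.74, and fell by 0.34 ± 0.10. A second Hsp90ab1 probe set, of lower mean level, moved further and in more compounds. It rose by 1.54 ± 0.18 in PBO, 1.37 ± 0.18 in DHEA, 1.03 in AA, 0.95 in DES, 0.90 in Wy, 0.77 in TAA, 0.72 in MPy and 0.57 in ETH, fell by 1.65 ± 0.18 in Nif, where the probe set used stood at −0.28 (adjusted p = 0.0656), and was not called in CIDB (0.11), where with the mean of both the call was lost (adjusted p = 0.643). That second probe set is in the study's signature of NGC against GC, which was chosen on these arrays. Of the other cytosolic members, Hspa12b was called down in CIDB (−0.22 ± 0.07, groups overlapping, lost in 4 of 6 leave-one-out fits), and Hspa12a, Hspa1l and Hspa2 were called nowhere, the last 3 being among the dimmest 25% of probe sets.

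Of 18 listed partners of HSP70 and HSP90, 15 were measured. PBO raised 5 and lowered 0 (background 7.04% up, 8.44% down), and ETH raised 4 and lowered 0 (13.6% up, 13.1% down). DHEA and DES raised 2 (9.78% up in DHEA and 6.79% up in DES), and CIDB raised 2 and lowered 3 (8.63% up, 6.62% down). Chordc1, a partner of HSP90, rose by 0.79 ± 0.18 in ETH and 0.67 ± 0.18 in PBO, and Ahsa1, which stimulates the HSP90 ATPase, by 0.72 ± 0.13 in ETH, 0.71 ± 0.13 in DHEA and 0.43 ± 0.13 in PBO. Stip1, which links HSP70 to HSP90, rose by 0.49 ± 0.13 in ETH and 0.39 ± 0.13 in PBO. Fkbp4, which serves steroid receptors with HSP90, rose by 0.94 ± 0.10 in DES and fell by 0.48 ± 0.10 in CIDB. Bag3, the partner of Hspb8 in autophagy, fell by 0.89 ± 0.20 in CIDB.

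Hspb1, the small heat shock protein that holds unfolding proteins in solution, had the largest range of the members and changed in both directions. It read 10.56, 10.48 and 10.89 in DHEA livers, against 9.10, 8.69 and 8.42 in their controls, and rose by 1.91 ± 0.37 (adjusted p = 0.000122 by limma), 3.75-fold. In ETH livers it read 7.25, 6.80 and 7.44, against 8.75, 8.56 and 8.17, and fell by 1.33 ± 0.37 (adjusted p = 0.00511 by limma), 2.51-fold lower. Neither pair of groups overlapped, and neither call was lost with any 1 array left out. The rises in PBO and Wy failed in 2 and 3 of their 6 leave-one-out fits. In PBO livers it read 10.70, 9.30 and 9.23, against 8.75, 8.56 and 8.17, a rise of 1.25 ± 0.37 that was not called without PBO replicate 1 (adjusted p = 0.223). In Wy livers it read 9.41, 10.81 and 9.66, against the controls of DHEA, a rise of 1.22 ± 0.37 that was not called without Wy replicate 2 (adjusted p = 0.237). The residual SD of Hspb1 was 0.47, against a median of 0.117 over all probe sets, and differences of 0.96 in Mcarb and 0.73 in AA did not pass (adjusted p = 0.254 and 0.258).

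The other small heat shock proteins are best known from muscle. Hspb6 was called down in ETH (−0.48 ± 0.14), DES (−0.43 ± 0.14) and CIDB (−0.42 ± 0.14), where the DES call failed in 5 of 6 leave-one-out fits, the CIDB call in all 6 and the ETH call in 1. Hspb8 was called up in PBO by 0.41 ± 0.13, and its second probe set was called in 6 further compounds, up in AA, CIDB, DHEA, MPy and Mcarb and down in Nif. Hspb2, Hspb3 and Hspb7 were called in none. Among 8 markers of skeletal and heart muscle at most 1 was called in any compound.

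The remaining J proteins, 24 genes, gave scattered calls. ETH had 5 up and 3 down (background 13.6% up, 13.1% down), PBO 2 up and 3 down (7.04% up, 8.44% down) and DES 0 up and 3 down (6.79% up, 9.99% down). CIDB had 3 up and 0 down (8.63% up, 6.62% down). DHEA had 2 up and 1 down (9.78% up, 9.35% down), as had Nif (4.26% up, 2.95% down), and AA, MPy and CPA had 1 or 2 calls. Dnaja2, a general partner of cytosolic HSP70, read 10.92, 10.90 and 11.004 in CIDB livers, against 10.46, 10.29 and 10.34 in their controls, and rose by 0.58 ± 0.10 (adjusted p = 1.37e-05 by limma). It also rose in ETH by 0.36 ± 0.10. Dnajc8, of the spliceosome, rose in CIDB by 0.34 ± 0.09. Dnajc7, which shuttles clients between HSP70 and HSP90, rose in ETH by 0.46 ± 0.10, and Dnajc2, which works on the ribosome, by 0.44 ± 0.07 in ETH and 0.24 ± 0.07 in Nif. Dnajc21, needed for the large ribosomal subunit, rose in Nif by 0.33 ± 0.10. The Nif calls of Dnajc2 and Dnajc21 failed in 3 and 4 of 6 leave-one-out fits, and that of Dnajc2 with pooled controls (adjusted p = 0.16).

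Dnajb1, the HSP40 partner of inducible HSP70, read 8.81, 8.49 and 8.85 in Nif livers, against 9.25, 9.35 and 9.59 in their controls, and fell by 0.68 ± 0.16 (adjusted p = 0.00318 by limma). In PBO livers it read 9.33, 9.18 and 9.13, against 8.48, 8.61 and 9.01, a rise of 0.51 ± 0.16. The control sets themselves differed in Dnajb1, set 2 standing 0.70 above set 5 (adjusted p = 0.00772 by limma) and set 5 at −0.59 against set 6. With controls pooled by vehicle the PBO difference, lost in 3 of 6 leave-one-out fits, shrank to 0.08 (adjusted p = 0.82), while the Nif call stood. A second Dnajb1 probe set was called in neither compound, and with the mean of both neither call held (adjusted p = 0.18 in Nif and 0.39 in PBO).

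Dnajb2 fell in ETH by 0.53 ± 0.10 and in DES by 0.46 ± 0.10, with the dosed animals at 8.995 to 9.21 and the shared controls at 9.51 to 9.67. Dnajc5, the cysteine string protein of vesicles, was called down in PBO (−0.46 ± 0.07), DES (−0.34 ± 0.07) and ETH (−0.22 ± 0.07) and up in CIDB by 0.27 ± 0.07. Set 5, the control of the first 3, stood 0.40 above set 6 in Dnajc5 (adjusted p = 4.16e-05 by limma). With pooled controls the DES and ETH calls were lost (adjusted p = 0.22 and 0.97) and that of PBO stood. With the mean of both Dnajc5 probe sets all 3 were lost, PBO at −0.14 (adjusted p = 0.107), and the second probe set was called up in AA and DHEA and down in Nif. Dnajc22 fell in ETH by 0.57 ± 0.11 and in MPy by 0.37 ± 0.11, the MPy call failing in 4 of 6 leave-one-out fits. Dnajc4 fell in AA by 0.45 ± 0.10, and Dnajc17 rose in ETH by 0.33 ± 0.08 and in AA by 0.29 ± 0.08. Its second probe set stood at −0.13 in ETH and 0.05 in AA, with the mean of both neither was called (0.10, adjusted p = 0.276, and 0.17, adjusted p = 0.0982), and the AA call also failed with pooled controls and in 3 of 6 leave-one-out fits. Dnajc12, a partner of phenylalanine hydroxylase, differed in PBO by −0.57 ± 0.18, a call lost with pooled controls (−0.34, adjusted p = 0.101), with array weights and in 3 of 6 leave-one-out fits. Dnajc6, the clathrin uncoating partner auxilin, stood 0.29 ± 0.08 higher in CPA, a call lost in 4 of 6 fits. Dnajb12 rose in DHEA by 0.33 and was called down in DES (−0.32) and PBO (−0.29). With pooled controls both downward calls were lost (−0.09 and −0.07, adjusted p = 0.475 and 0.676). With the mean of both probe sets DES stood at −0.11 (adjusted p = 0.502) and PBO turned to 0.07. The second Dnajb12 probe set was called up in PBO (0.44, adjusted p = 0.0354 by limma), where the one used was called down. It was also called up in ETH (0.49). Dnajc14 was called up in ETH (0.31) and PBO (0.27), and with pooled controls neither call held (0.18 and 0.13, adjusted p = 0.0665 and 0.301), the PBO call failing in 5 of 6 leave-one-out fits as well. In DHEA, Dnajc24 was called up (0.29) but stood at 0.11 with the mean of its probe sets (adjusted p = 0.253), and Dnaja4 was called down, a call lost in 5 of 6 fits, while its second probe set was called down in DHEA, MPy and PBO. Dnaja1, Dnajb3, Dnajb4, Dnajb5, Dnajb13, Dnajc13 and Dnajc27 were called nowhere, though second probe sets were called for Dnaja1 in ETH (0.43) and DES (−0.49) and for Dnajb5 in Nif (−0.34). Hspbp1, an exchange factor of HSP70, rose by 0.33 ± 0.08 in TAA and in PBO, and Hspbap1, a binding partner of Hspb1, by 0.44 ± 0.09 in ETH.

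Vehicle animals set the background for these calls. Between methylcellulose sets the members called, with the background over all genes, were 0 for set 1 against 2 (0.797%), 1 for 1 against 5 (1.97%), 4 for 1 against 6 (7.33%), 5 for 2 against 5 (2.32%), 0 for 2 against 6 (1.85%) and 8 for 5 against 6 (10.3%). Corn oil sets 3 and 4 differed in 0 members by limma (0.307%). Set 5, the control of ETH, DES and PBO, took part in 14 of these 18 calls, among them Dnajc1, Dnajc5, Dnajb1, Dnajb12, Cct8 and, at 0.48 over set 6, Hspa9. Set 6, the control of PB, took part in the 4 calls against set 1 and the 8 against set 5. Which of sets 5 and 6 stood apart was not tested.

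Across the classes, with the compound as the unit, no member was called. NGC against GC, NGC against NC and all carcinogens against NC each called 0 members by limma, against 0.115%, 0.0192% and 0.0192% of all genes, with 11, 10 and 10 members at an unadjusted p under 0.05 beside 1325, 1151 and 995 of all genes. The lowest member p was that of Dnajc22, with a mean log2 fold change of −0.30 over 8 NGC, against 0.17 over 2 GC (difference −0.48 ± 0.09, adjusted p = 0.117 by limma). Dnajb1 averaged 0.18 over the NGC, against −0.46 over 2 NC (difference 0.64 ± 0.14, adjusted p = 0.274 by limma). Both GC share control set 3 and both NC share control set 2, so the fold changes within these classes are not independent and class cannot be told apart from control set. The Dnajb1 mean of the NC is against set 2, which stood 0.70 above set 5 in this gene. With controls pooled by vehicle the counts were 0 as well, and the NGC that called many chaperones, ETH and DHEA, stood beside PB and Mcarb, which called 0.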

How the data were processed

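RNA from 63 livers was measured on Affymetrix RAE230A arrays. The authors processed CEL files from MAS 5.0 by RMA (affy package, version not given in the sources used here), which corrects background, normalizes between arrays by quantiles and sums probes, and the deposited values are log2 levels of 15866 probe sets, used as they stand. They ran from 3.96 to 15.11, with array medians of 7.42 to 7.51 and mean correlations with the own group of 0.9886 to 0.9956. No array differed from the rest enough to be left out, and 0 columns were identical.

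Symbols came from the platform annotation, in which 12783 probe sets have 1 symbol, 312 several and 2771 none. A model with 1 mean for each of 21 groups was fitted with limma 3.58.1 to the 63 arrays (R 4.3.3, data.table at version 1.17.8), with 42 residual and 4.81 prior degrees of freedom, and each compound was compared with its control set. The Benjamini-Hochberg adjustment ran over all probe sets, and shares of all genes were taken over 10411 genes. Classes were compared with limma on the compounds' mean fold changes (8 NGC, 2 GC, 2 NC). Summed marker levels are the log2 of summed unlogged values.

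The members, role lists, partner lists and marker lists were chosen with earlier results of these data known. The naming rule took, in each compound, the 3 members called furthest up and the 3 furthest down whose dosed and control animals did not overlap, every member called in 5 or more compounds, fixed lead members wherever called and up to 4 called genes per partner list and compound. Other members were named after their values were seen, to account for all 61. Labels name methylcellulose where the methods name carboxymethyl cellulose for some compounds. On simulated data for ETH against its controls over 15866 probe sets, 90% of 50 probe sets changed 1.5-fold and 38% of 50 changed 1.25-fold were called, and 8 unchanged ones were called. The simulation used independent normal noise and changed far fewer probe sets than were called in ETH, so these shares do not measure the power of the real contrast. Promoters came from RefSeq (GRCr8). Figures were drawn with matplotlib (Python, pandas and numpy). Alternatives were the 6 arrays of a contrast alone, array weights, a filter on dim probe sets, repeated quantile normalization, means over probe sets, pooled controls, a 1.5-fold minimum, a replicate block and leaving out each array or compound.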

Additional observations from a re-analysis of the deposited data

How the results depend on the processing

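The 46 members called in any compound became 49 with pooled controls and 47 without the dimmest 25% of probe sets, which holds 7 members, and the class contrasts stayed at 0 with pooled controls and with each compound left out. Of the 121 calls per compound, 120 of 120 tested stood without these dim probe sets, 114 after repeated quantile normalization, 113 with array weights, 104 with the mean of a gene's probe sets, 100 with pooled controls and 76 in fits on the 6 compared arrays. Direction turned once, for Dnajb12 in PBO, at 0.073 with the mean of its probe sets in place of −0.29. With any 1 of their arrays left out, 59 calls were never lost, 21 of them in ETH and 16 in DHEA.

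Counts of members called moved by over 1.5 times as follows, and the cause was not tested. Shares of all genes were not counted under these settings or with 1 array left out, so the counts have no background beside them. A 1.5-fold minimum left 9 in ETH, 5 in DHEA, 3 in Wy, 3 in DES, 1 in PBO, 1 in MPy, 1 in Nif and 0 in AA, TAA, CPA, CIDB and DMN. Array weights called 20 in CIDB, 17 in DMN, 17 in Nif, 16 in TAA, 15 in MPy, 15 in Wy, 8 in CPA and 4 in Mcarb, and 12 between control sets 1 and 2, 2 between 5 and 6 and 5 between 3 and 4. Pooled controls called 18 in Wy, 17 in TAA, 17 in MPy, 13 in Mcarb, 1 in PB and 0 in DMN. Fits on 6 arrays, which have fewer residual degrees of freedom, called 6 in DES, 4 in PBO, 4 in CIDB, 1 in AA and 0 in DMN, and 0 between sets 1 and 5, 1 and 6, 2 and 5, and 5 and 6. Means over probe sets called 2 in CPA and 1 in Mcarb, and 0 between sets 1 and 5, 2 between 2 and 5 and 5 between 5 and 6. Repeated quantile normalization called 12 in TAA, 11 in MPy and 0 in DMN, and 1 between sets 1 and 2, 0 between 1 and 5 and 1 between 3 and 4.

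Leaving out 1 array at a time, limma called from 24 to 26 in ETH, 18 to 26 in DHEA, 10 to 16 in PBO, 9 to 12 in DES, 4 to 11 in Wy (4 without Wy replicate 2), 4 to 7 in CIDB (4 without CIDB replicate 1), 2 to 6 in TAA (2 without methylcellulose control set 1 replicate 6), 2 to 4 in MPy (below 5 without any 1 of its arrays), 1 to 5 in Nif (1 without Nif replicate 2), 2 to 4 in CPA (2 without CPA replicate 1), 1 to 3 in AA (1 without AA replicate 3), 0 to 5 in DMN (0 without corn oil control set 3 replicate 5, 5 without replicate 4), 0 to 1 in Mcarb and 0 to 0 in PB and CFX. Between control sets they ran from 3 to 9 for 5 and 6 (3 without set 5 replicate 8), 1 to 5 for 1 and 6 (1 without set 1 replicate 4), 2 to 4 for 2 and 5, 0 to 1 for 1 and 5, 0 to 1 for 3 and 4, and 0 to 0 for 1 and 2 and for 2 and 6.

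Only PB and CPA share replicate numbers with their control sets, and same-numbered animals did not deviate together (correlations from −0.153 to 0.165). With the replicate block, CPA called 3 members in place of 4, since Dnajc3 missed the threshold (adjusted p = 0.0536 by limma), and PB called 0.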
